A study of Arabidopsis thaliana with 27 samples.

Results

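The early ozone response of mutant leaves was read from 6 of the 27 arrays of the series, chosen by their titles: 3 of double mutant leaves after 3 h of ozone and 3 of double mutant leaves after 3 h of clean air. The mutant is gpa1-4/agb1-2, an Arabidopsis thaliana line that lacks both the alpha and the beta subunit of the heterotrimeric G protein. All 6 arrays carry both mutant alleles, so the comparison is one of air and not of genotype. Plants 4 to 5 weeks old, raised at 23 °C in 9 h of light and 15 h of dark, were moved to 4 chambers at 24 °C that held either clean air (5 ppb ozone) or ozone at 125 ppb during 7 h of each day, and mid-whorl leaves were taken after 3 h. Columbia wild-type leaves of the same air and time (3 and 3 arrays) and mutant leaves after 2 d (3 in clean air, 4 in ozone) are used below for comparison. None of those arrays is among the 6. The means compared come from the 6 arrays, while the spread behind each test is pooled over all 27 arrays. The labels call the replicates biological and do not say how many plants made up 1 array or which chamber an array came from. Differences between plants, chambers and arrays cannot be told apart.

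Heterotrimeric G proteins pass signals from the cell surface inward. In Arabidopsis GPA1 is the canonical alpha subunit and AGB1 the only beta subunit, and mutants of either have been linked to altered responses to pathogens and to ozone. Ozone enters through the stomata and breaks down in the apoplast into reactive oxygen species, to which leaf cells add an oxidative burst of their own. The early transcript response to such signals overlaps with that to microbial elicitors and commonly includes receptor-like kinases, WRKY factors, secreted oxidases and enzymes that conjugate small molecules.

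Each value is the log2(intensity + 1) of a probe set on the ATH1 array, and a change is the mean in ozone minus the mean in clean air, on that scale, with its standard error (SE) from 1 limma model of all 27 arrays. A probe set passed when limma's Benjamini-Hochberg adjusted p over 22746 probe sets was under 0.05. The 6 arrays had median intensities of 163.7 to 175.8 and correlated at 0.947 to 0.965 within clean air, at 0.946 to 0.963 within ozone and at 0.913 to 0.956 between the airs. GPA1 and AGB1 were not among the probe sets named by the annotation, so the targeted genes themselves could not be checked. The leaf label was checked with 8 measured mesophyll markers, among them LHCB4.1 and RCA, whose summed intensity was 86322 to 96364 in clean air and 82136 to 102097 in ozone. None of the 8 passed. Of the markers of other cell types few were measured: the guard-cell gene FAMA stood at 7.47 in clean air and 7.29 in ozone, the stomatal lineage genes SPCH and MUTE stayed at or below 3.09 in both group means, and the root-hair gene EXPA7 was at 4.38 and 4.59. No epidermis, phloem, xylem, flower or seed marker was among the named probe sets. Here and below a measured gene is one read by a probe set to which the annotation gives 1 gene. Since 8730 of the 22746 probe sets were not listed, the array could hold further markers and further members of each family. In whole leaf, fewer cells of a type and less RNA per cell cannot be told apart.

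After 3 h of ozone the mutant leaves changed in 148 of 22746 probe sets (0.651%), and almost all of these changes were rises. The calls rest on the spread pooled over 27 arrays and on single arrays: with 1 of the 6 left out 3 to 296 passed, and with the 6 fitted alone in limma 0 passed, with a smallest adjusted p of 0.0689 and 2327 probe sets at an unadjusted p under 0.05. Of the 148, 140 were higher in ozone (0.615% of all probe sets) and 8 were lower (0.0352%). At an unadjusted p under 0.05, 2324 probe sets (10.2%) differed. The rises ran from 0.73 to 6.12 with a median of 2.33, and carried the probe sets from a median clean-air mean of 7.08 to a median ozone mean of 9.56. The median change over all probe sets was −0.04. Single genes could be named for 79 of the 148, of which 76 rose and 3 fell. A further 5 probe sets matched several genes, and 64 were not listed in the annotation. The 2 largest rises were in unlisted probe sets: 266841_at by 6.12 ± 1.22 and 247573_at by 5.31 ± 0.89.

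The 15 largest rises among named genes are given first with the level on every array, in the order of replicates 1, 2 and 3. Only rises whose airs did not overlap were eligible, so separation of the airs in these genes is part of the choice. AT5G12930, a gene with no role assigned here, stood at 4.23, 3.67 and 3.07 in clean air and 7.73, 9.88 and 7.74 in ozone. Its change of 4.79 ± 1.03 had an adjusted p of 0.0309 in limma. The lowest ozone array lay far above the highest clean-air array. The gene was dim in clean air, and a pseudocount of 16 gave a change of 3.72. AT1G19020, a small stress-responsive protein often used as an oxidative stress marker, had the smallest adjusted p of the 15, shared with AT4G19370. It stood at 7.58, 8.64 and 7.07 in clean air and 11.92, 13.03 and 11.39 in ozone, a rise of 4.35 ± 0.69 (limma adjusted p = 0.00825). AT4G19370 stood at 3.93, 4.36 and 2.81 in clean air and 6.13, 8.31 and 7.06 in ozone and rose by 3.46 ± 0.55. In each of these 3 genes ozone replicate 2 was the highest array.

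**Figure D1:**
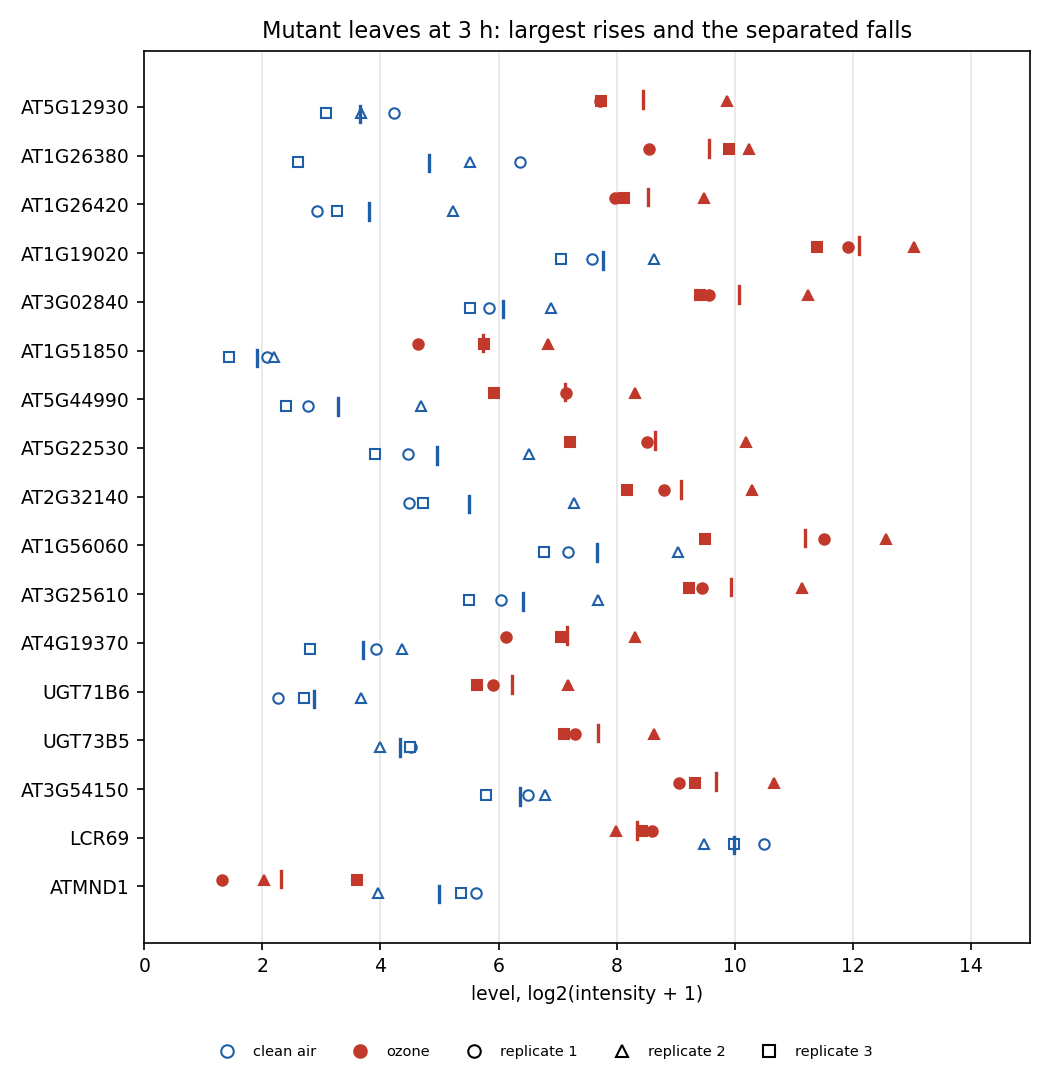
Level, log2(intensity + 1), on each of the 6 mutant arrays of 3 h for the 15 largest rises of named genes and the 2 named falls whose arrays do not overlap. Open blue symbols are clean air, filled red symbols are ozone, the symbol shape gives the replicate number and short bars the group means. Lack of overlap between the airs was a condition for being shown. In the 15 rises the triangle of replicate 2 is the highest ozone array.

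Berberine-bridge-like FAD oxidases are secreted or wall-bound enzymes, some of which oxidise oligogalacturonides, cellodextrins or indole compounds released in defence. Of 9 measured genes of this family 3 rose, 6 had all 3 ozone arrays above all 3 clean-air arrays, and all 9 changes were above 0, with a median of 2.47. Over all 13350 named genes 75 rose, 1091 had every ozone array higher, 46% of changes were above 0 and the median was −0.04. AT1G26380 stood at 6.36, 5.51 and 2.61 in clean air and 8.55, 10.25 and 9.91 in ozone, a rise of 4.74 ± 0.95. Its clean-air replicate 3 was dim, the other clean-air arrays were brighter, and all ozone arrays lay above them. AT1G26420 stood at 2.93, 5.23 and 3.26 in clean air and 7.97, 9.48 and 8.12 in ozone and rose by 4.72 ± 0.88. AT4G20830, which encodes an oligogalacturonide oxidase, was already bright in clean air and rose by 2.81 ± 0.58, from 9.35 ± 0.32 to 12.16 ± 0.69 (SD, n = 3 each). The limma adjusted p-values were 0.0237, 0.0178 and 0.0244.

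The other 6 oxidase genes did not pass. AT4G20860 had a change of 2.47 ± 0.78, with levels of 6.49, 6.95 and 6.98 in clean air and 9.42, 9.30 and 9.10 in ozone. Its arrays were far apart by air and close within each air, and limma's adjusted p was 0.179 with an SE drawn from all 27 arrays. AT1G30700 had a change of 3.65 ± 1.33 and AT1G26410 one of 2.29 ± 0.85, both from clean-air arrays that spread over more than 2 log2 units. AT5G44360 had a change of 0.04. The 5 genes from AT1G26380 to AT1G26420 are neighbours on chromosome 1 in the gene order of TAIR10.1. The 2 at the ends of the run rose while the 3 between them, AT1G26390, AT1G26400 and AT1G26410, did not pass, with changes of 0.95, 0.48 and 2.29. Near-identical copies could share signal on short probes, and this was not tested.

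Kinases of the receptor-like families, which sit in the plasma membrane or are tied to it and relay signals from outside the cell, were among the named rises. By textbook roles, assigned after the values were seen, 16 of the 76 risen genes encode such kinases. The family is very large and its measured members were not counted, so the 16 describe the called genes and show nothing particular to kinases. Their changes ran from 0.75 to 3.84 with a median of 1.89. AT1G51850, a leucine-rich repeat kinase, had the largest of the 16 changes. It stood at 2.07, 2.20 and 1.43 in clean air and 4.63, 6.84 and 5.75 in ozone, a rise of 3.84 ± 0.79 (limma adjusted p = 0.0244). All its clean-air arrays were at the dim end of the scale, and a pseudocount of 16 gave a change of 1.91. Its neighbours in a run of 9 leucine-rich repeat kinase genes from AT1G51790 to AT1G51850 did not all move: of 7 measured genes 2 passed, the other being AT1G51790 at 1.50 ± 0.34. AT1G51805, AT1G51810, AT1G51820, AT1G51830 and AT1G51840 had changes between −0.29 and 0.95.

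Further leucine-rich repeat kinases rose from moderate or high clean-air levels. AT1G74360 rose by 2.58 ± 0.57 from 6.45 ± 0.84 to 9.03 ± 0.69, and AT5G25930 by 2.27 ± 0.45 from 7.90 ± 0.29 to 10.17 ± 0.65 (SD, n = 3 each). AT4G08850, known as MIK2, a receptor of phytocytokine peptides, was the brightest of the 16 and rose by 1.38 ± 0.31, from 10.03 ± 0.66 to 11.41 ± 0.39. AT5G41180, AT1G56145 and AT3G47570 rose by 1.38, 1.16 and 0.75. The change of AT3G47570 was the smallest of the 16, yet its arrays were tight, with clean-air levels of 7.07 to 7.21 and ozone levels of 7.75 to 8.12.

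Of the 16, 4 are S-locus lectin kinases, receptors with a lectin domain outside the cell. B120 stood at 6.02, 5.19 and 5.50 in clean air and 8.0, 8.93 and 8.22 in ozone, a rise of 2.81 ± 0.46 (limma adjusted p = 0.0103). Its clean-air arrays lay close together, and every ozone array was above them. AT1G61360, AT1G61370 and AT1G61390 form a run of 4 with SD1-29 on chromosome 1. AT1G61360 rose by 1.54 ± 0.33, AT1G61370 by 1.89 ± 0.42 and AT1G61390 by 3.03 ± 0.56. SD1-29, which encodes LORE, a sensor of bacterial 3-hydroxy fatty acids, had a change of 1.09 ± 0.38 and did not pass (adjusted p = 0.245 in limma). AT1G61390 was dim in clean air at 1.68 and reached 4.71 in ozone, and a pseudocount of 16 gave a change of 1.17, which passed.

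The remaining kinase genes were AT5G46080, AT3G09010, AT4G25390 and AT1G18390. They rose by 2.05, 2.03, 1.88 and 1.75. AT1G18390 was read by 2 probe sets, of which 1 passed and the other had a change of 1.57 with a limma adjusted p of 0.0632. A list of 4 other measured surface receptors and their partners had no member past the threshold. BIK1, the kinase directly below many immune receptors, had a change of 1.4 ± 0.34 with limma adjusted p = 0.0586, and the bacterial EF-Tu receptor EFR one of 1.18 ± 0.54. The wall-sensing kinases FER and THE1 had changes of 0.06 and −0.14.

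**Figure D2:**
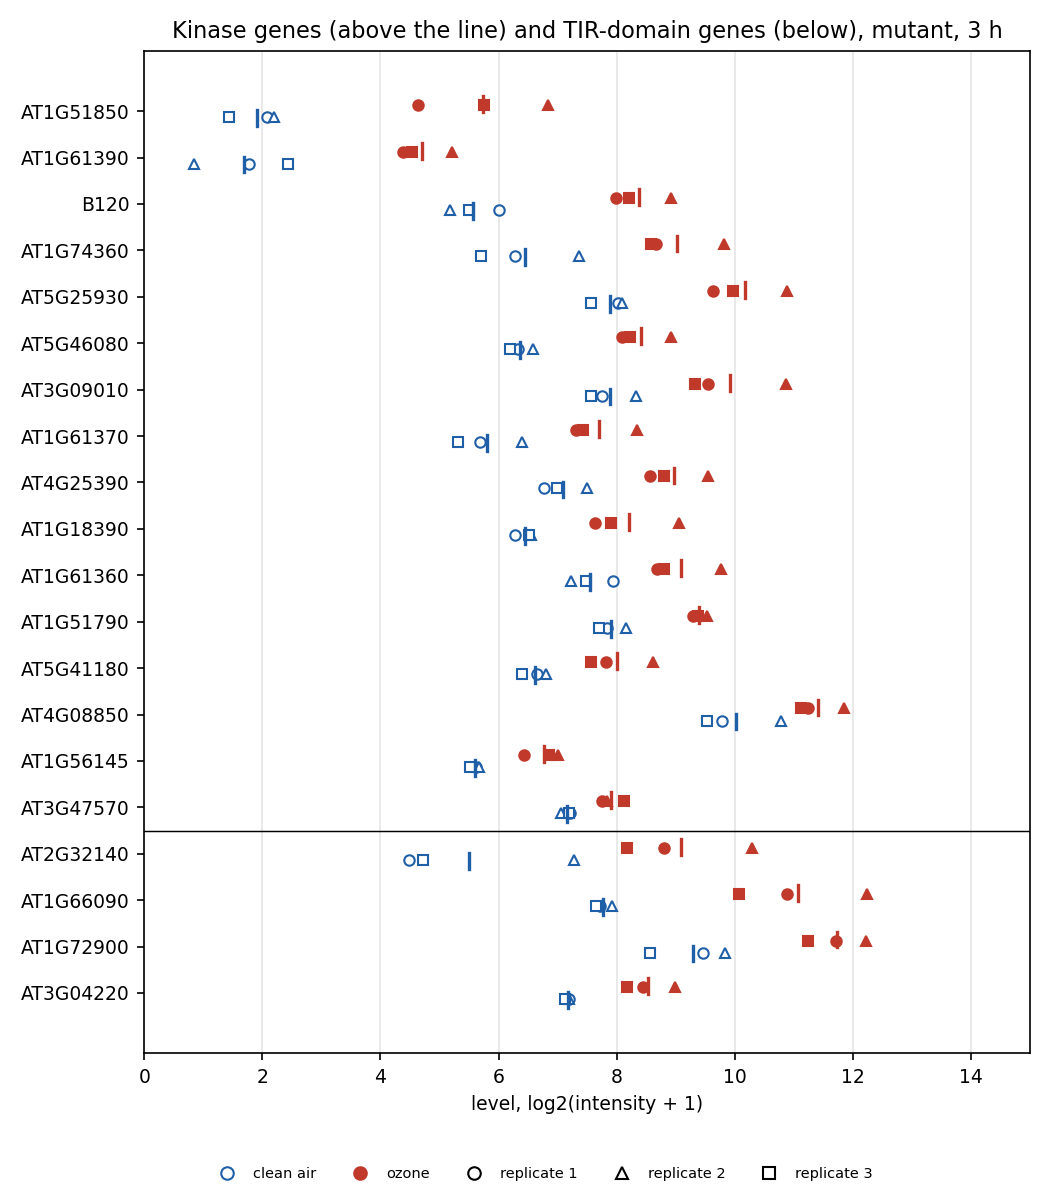
Level, log2(intensity + 1), on each of the 6 mutant arrays of 3 h for the 16 kinase genes (above the line) and 4 TIR-domain genes (below) that rose. Open blue symbols are clean air, filled red symbols are ozone, shapes give the replicate number and bars the group means. AT1G51850 and AT1G61390 start near the bottom of the scale. Every gene has its 3 ozone arrays above its 3 clean-air arrays, as do 8.83% of all probe sets. The genes are shown because they passed on these arrays, so their separation is largely part of that choice.

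By roles assigned in the same way, 4 risen genes encode TIR-domain proteins, intracellular immune receptors or shortened relatives of them, and the measured genes of that family were not counted either. A further TIR-domain gene, AT1G57630, had a change of 3.32 ± 1.07 and did not pass. AT2G32140 stood at 4.49, 7.27 and 4.72 in clean air and 8.80, 10.30 and 8.17 in ozone, a rise of 3.60 ± 0.79 (limma adjusted p = 0.0356). Its clean-air replicate 2 lay far above the other clean-air arrays and still below every ozone array. AT1G66090 rose by 3.30 ± 0.61 from a tight clean-air level of 7.77 ± 0.14 (SD, n = 3). AT1G72900 rose by 2.44 ± 0.56 and AT3G04220 by 1.37 ± 0.28. SGT1A, a co-chaperone that such receptors need to fold, rose by 1.68 ± 0.35, from 10.05 ± 0.53 to 11.73 ± 0.49.

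Of 7 measured WRKY genes, DNA-binding factors of stress and senescence, 2 rose and the list median was 0.17. Over all 13350 named genes 75 rose. WRKY6 stood at 5.87, 5.67 and 5.35 in clean air and 8.15, 9.61 and 8.66 in ozone, a rise of 3.17 ± 0.69 (limma adjusted p = 0.0317). WRKY53 stood at 6.86, 8.25 and 7.26 in clean air and 8.96, 10.86 and 9.99 in ozone, a rise of 2.48 ± 0.56 (limma adjusted p = 0.0408). WRKY53 was the more variable of the pair within each air, though its airs did not overlap. WRKY47 had a change of 0.80, WRKY22 of 0.17, ZAP1 of 0.06, WRKY42 of −0.09 and WRKY20 of −0.09. The GRAS-family gene AT1G07520 rose by 1.41 ± 0.24. The 3 measured AP2/ERF genes had changes of −0.38 to −0.13, and none of 28 bZIP, bHLH, heat shock factor and zinc-finger genes passed. Among the latter STZ, a zinc-finger repressor induced by reactive oxygen, had a change of 2.35 ± 0.69 with full separation of the airs (limma adjusted p = 0.134).

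Of the enzymes that conjugate or oxidise small molecules, few members of large families passed. AT5G44990, of the glutathione S-transferase superfamily, stood at 2.77, 4.69 and 2.41 in clean air and 7.14, 8.31 and 5.92 in ozone, a rise of 3.83 ± 0.88 (limma adjusted p = 0.045). UGT71B6, a glucosyltransferase that acts on abscisic acid, stood at 2.26, 3.68 and 2.70 in clean air and 5.90, 7.18 and 5.63 in ozone and rose by 3.36 ± 0.76. With a pseudocount of 16 its change was 2.01 and it did not pass. UGT73B5, a glucosyltransferase used as a marker of redox stress, stood at 4.51, 3.99 and 4.50 in clean air and 7.29, 8.64 and 7.11 in ozone and rose by 3.35 ± 0.58 (limma adjusted p = 0.0111). It was the only one of the 3 whose clean-air replicate 2 was the lowest of its air.

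Beside these, 49 of 51 measured UDP-glycosyltransferase genes did not pass and the median of the 51 was 0.02. The other 2 rose, against 75 of all 13350 named genes. UGT76B1, which conjugates isoleucic acid and salicylate, had a change of 5.10 ± 1.88 with a limma adjusted p of 0.281. Of 24 cytochrome P450 genes CYP71B23 alone passed, rising by 2.34 ± 0.48, and the median was 0.40. None of 14 classical glutathione S-transferase genes passed, with changes of −0.84 to 0.75 and a median of −0.24. None of 25 antioxidant and redox enzyme genes passed, and their median was −0.07. The largest changes among the 25 were those of GRX480, a CC-type glutaredoxin, at 2.49 ± 0.78, and Prx37, a class III peroxidase, at 2.41 ± 0.76. Both separated the airs fully.

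The 10 measured oxidative stress markers, a list that holds AT1G19020, UGT73B5, STZ and AT1G57630 already given, had a median of 2.50. Of the 10, 2 rose, against 75 of all 13350 named genes. AT1G05340 stood at 5.86, 7.82 and 6.0 in clean air and 9.76, 12.06 and 9.01 in ozone. Its change of 3.72 ± 0.90 did not pass (limma adjusted p = 0.0588). Of the list's other members UGT73B4 had a change of 2.66 ± 1.21. The smaller changes were those of NDB2, an alternative NADH dehydrogenase, at 1.18, UGT73B1 at 0.56, GSTU25 at −0.28 and AT2G21640 at −0.33. In all, 6 of the 10 had no overlap between the airs, against 8.83% of all probe sets with every ozone array higher. The list was drawn up with earlier results of these data known.

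Of 19 measured heat shock protein and chaperone genes 2 rose, against 75 of all 13350 named genes, and 8 of the 19 changes were above 0. Hsp70-2, a cytosolic HSP70, stood at 8.39, 9.59 and 7.89 in clean air and 11.82, 12.94 and 10.43 in ozone, a rise of 3.11 ± 0.70 (limma adjusted p = 0.0391). Fes1A, a partner of cytosolic HSP70, stood at 8.10, 8.26 and 7.65 in clean air and 10.91, 12.19 and 9.62 in ozone, a rise of 2.90 ± 0.67 (limma adjusted p = 0.0457). In both genes ozone replicate 3 was the lowest ozone array and replicate 2 the highest. AT5G48570, an FKBP-type co-chaperone, and Hop3, which links HSP70 and HSP90, had changes as large, at 3.26 ± 0.99 and 3.43 ± 1.05, and did not pass, each with a limma adjusted p of 0.159. The other 15 of the 19 measured genes, among them ER and plastid chaperones, had changes of −0.71 to 0.62, and the median of the 19 was −0.03.

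Calcium sensors and channels gave no call among 17 genes. CML37 stood at 5.53, 7.44 and 5.17 in clean air and 9.86, 11.41 and 7.66 in ozone. Its change of 3.59 ± 0.92 had a limma adjusted p of 0.0743. CML38, a relative of CML37, had a change of 2.83 ± 1.0 and CML42 one of 0.89 ± 0.22 (limma adjusted p = 0.071). The median of the 17 was −0.05.

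A ubiquitin ligase and a related repeat protein rose. AT3G02840, an armadillo-repeat protein induced by elicitors, stood at 5.84, 6.89 and 5.51 in clean air and 9.56, 11.25 and 9.41 in ozone, a rise of 3.99 ± 0.69 (limma adjusted p = 0.0111). PUB24, a U-box ligase that with its relatives dampens pattern-triggered immunity, rose by 1.75 ± 0.35, from 8.03 ± 0.74 to 9.78 ± 0.55. PUB24 was the only one of 16 measured ligase genes to pass, against 75 rises among all 13350 named genes, and the median of the 16 was 0.15.

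Other called genes are given here by roles assigned after their values were seen, with no count of the measured genes of each kind. For membrane transport these were 4 rises. AT3G25610, a P-type ATPase that flips lipids across membranes, stood at 6.04, 7.68 and 5.51 in clean air and 9.44, 11.14 and 9.23 in ozone, a rise of 3.53 ± 0.68 (limma adjusted p = 0.0198). ACA.l, another lipid flippase of that family, rose by 1.26 ± 0.24. AT5G54860 and AT2G39210, of the major facilitator family, rose by 1.91 ± 0.43 and 1.80 ± 0.37. Several others encode secreted proteins. AT5G18470, a mannose-binding lectin-like protein, rose by 2.67 ± 0.54, and the cysteine-rich DUF26 proteins AT5G48540 and AT3G22060 by 2.33 ± 0.38 and 2.20 ± 0.42. The matrix metalloprotease AT1G24140 rose by 2.49 ± 0.57, the chitinase AT1G02360 by 1.84 ± 0.35 and the protease inhibitor AT1G72060 by 1.88 ± 0.32. The ankyrin-repeat genes AT2G24600 and AT1G14480 rose by 2.0 and 0.90.

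Among the 15 largest rises, 3 further genes have no role assigned here, beside AT5G12930, AT1G19020 and AT4G19370. AT5G22530 stood at 4.47, 6.53 and 3.91 in clean air and 8.52, 10.20 and 7.22 in ozone, a rise of 3.68 ± 0.77. AT1G56060 stood at 7.17, 9.04 and 6.77 in clean air and 11.51, 12.56 and 9.50 in ozone, a rise of 3.53 ± 0.73. AT3G54150 stood at 6.50, 6.78 and 5.79 in clean air and 9.05, 10.66 and 9.32 in ozone, a rise of 3.32 ± 0.58. All 3 had replicate 2 as the highest array in both airs. Of the remaining rises without an assigned role the largest were AT1G52200 at 3.32, AT2G18690 at 3.29 and AT3G48650, annotated as a pseudogene, at 3.21. In total 47 of the 79 genes had a role assigned and 32 had none.

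Falls were few. ATMND1, a gene of meiotic recombination, stood at 5.62, 3.96 and 5.37 in clean air and 1.32, 2.04 and 3.60 in ozone. It fell by 2.67 ± 0.45 (limma adjusted p = 0.0106), to a level near the bottom of the range in ozone. With a pseudocount of 16 the change was −1.20. Leaves are not a meiotic tissue, and of the other 5 measured meiosis genes none passed, with changes of −1.52 for ATSPO11-1, −1.35 for SDS and 1.4 for ZYP1b. LCR69, a defensin-like peptide, stood at 10.49, 9.49 and 9.99 in clean air and 8.59, 7.99 and 8.43 in ozone. It fell by 1.65 ± 0.36 (limma adjusted p = 0.036). The other 12 measured defensins and small cysteine-rich peptides did not pass. AT1G21730, a kinesin-like gene, fell by 2.06 ± 0.47, although ozone replicate 3 at 5.36 lay above clean-air replicate 2 at 5.14. With a pseudocount of 16 its change was −1.30 and it did not pass. Of the 148 probe sets that of AT1G21730 was the only one whose airs overlapped. The 148 were selected for their difference on the same arrays, so lack of overlap among them is largely part of that choice. Of all probe sets 17.2% were without overlap (8.83% with every ozone array higher and 8.34% with every one lower). Unlisted probe sets also fell, the largest being 263034_at by 2.36 ± 0.53 and 263548_at by 1.71 ± 0.32.

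Photosynthesis genes and growth-related lists gave no call at 3 h. The 7 nuclear photosystem genes had changes of −0.27 to 0.01 and the 69 plastid-encoded genes a median of 0.06. The 11 chlorophyll and tetrapyrrole synthesis genes had a median of −0.34 and the 7 tubulin genes one of −0.25. Of 9 flavonoid and anthocyanin genes 8 had changes below 0, with a median of −0.80, and none passed. DFR, an enzyme of anthocyanin synthesis, stood at 9.55, 11.28 and 8.23 in clean air and 9.49, 5.69 and 7.26 in ozone. Its change of −2.21 ± 1.09 came with wide scatter, since clean-air replicate 2 was the highest and ozone replicate 2 the lowest of the 6 arrays, and the airs overlapped. UF3GT and UGT78D1, glycosyltransferases of anthocyanins and flavonols, had changes of −1.94 ± 0.82 and −1.20 ± 0.61. Of the 30 lists with at least 3 measured genes 9 had a member past the threshold, while 75 of all 13350 named genes rose and 3 fell. The lists differ in size and were drawn up with earlier results of these data known. Their count therefore does not measure the breadth of the response.

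**Figure D3:**
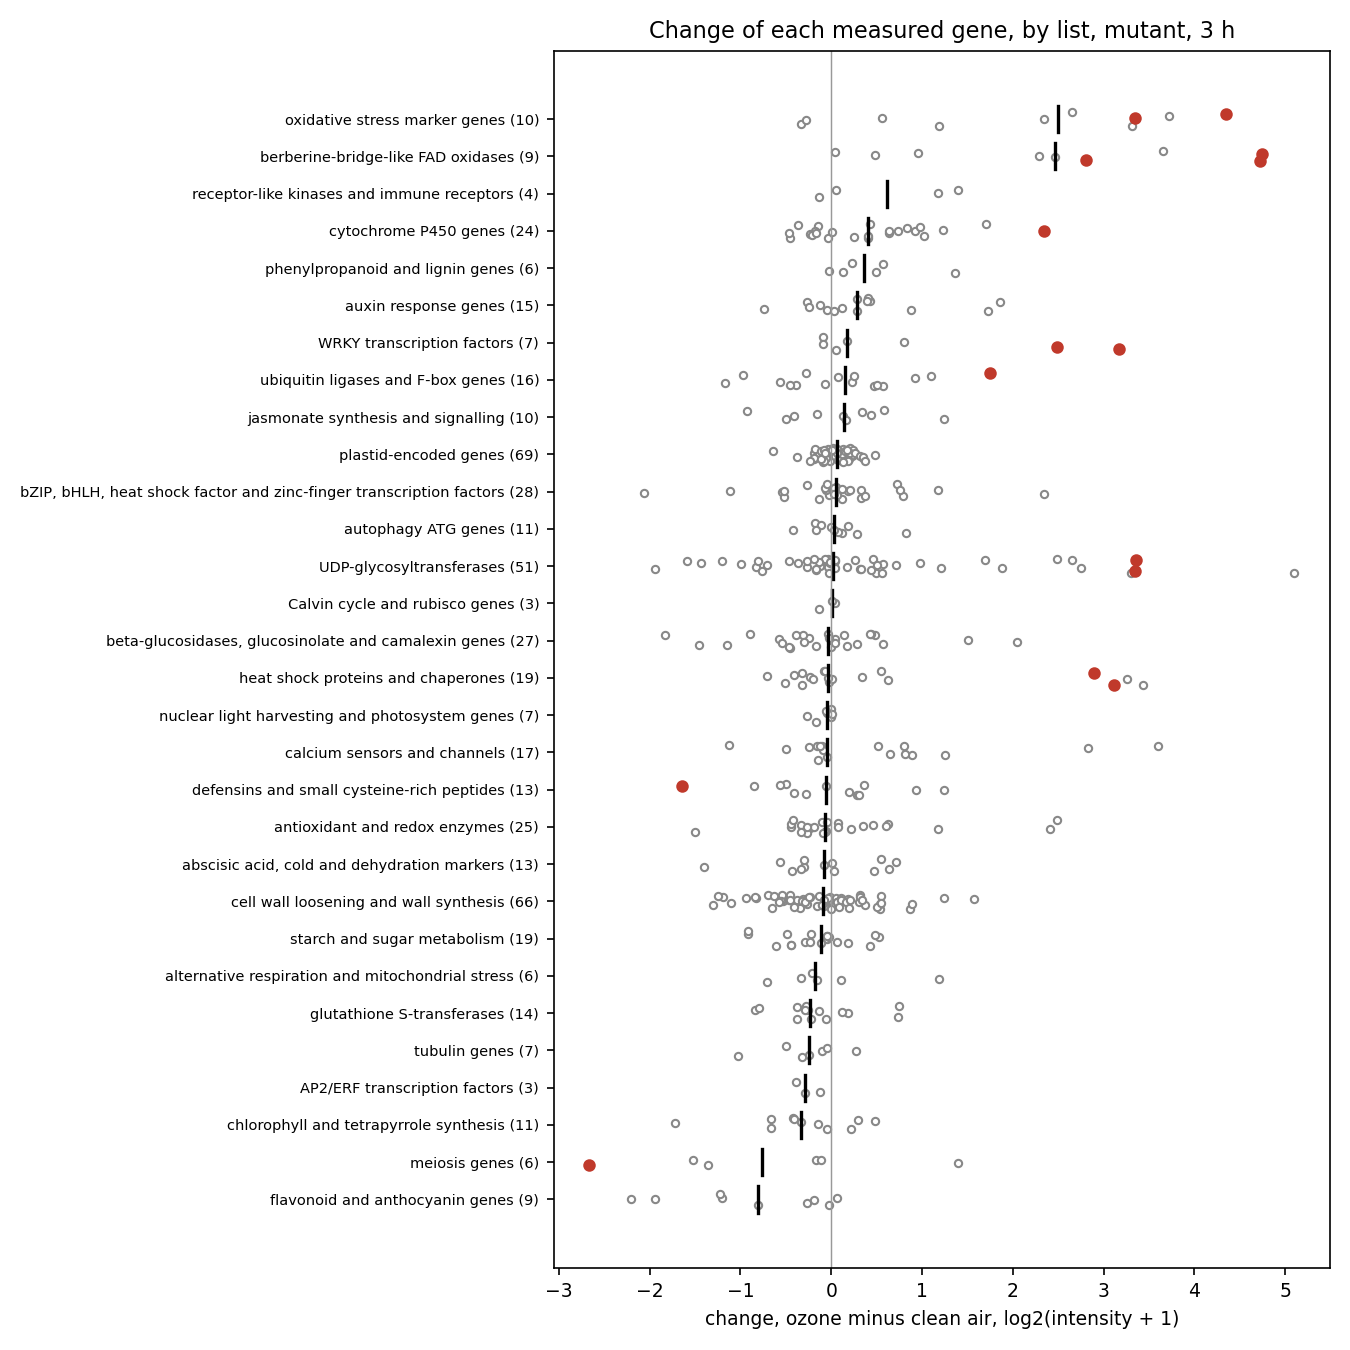
Change in ozone minus clean air, log2(intensity + 1), for each measured gene of 30 gene lists in the mutant at 3 h, with the number of measured genes in brackets. Red dots passed in limma, open dots did not, and black bars are list medians. All 9 oxidases and 8 of the 10 oxidative stress markers lie to the right of 0, and no other list has more than 2 red dots.

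The rises were next set beside those of wild-type leaves after 3 h of ozone. The wild-type means rest on other arrays, but both sets of tests use the same spread pooled over 27 arrays. A probe set with a small pooled spread is favoured in both, so the 2 sets of calls are not independent. In wild type 342 probe sets passed (1.5%), 274 of them higher (1.2%) and 68 lower (0.299%). The 2 sets of rises shared 96 probe sets, which is 68.6% of the 140 in the mutant and 35% of the 274 in wild type. Of the 140 mutant rises 136 had a change above 0 in wild type, with a median of 2.15 there against 2.33 in the mutant. Since the 140 were selected in the mutant, their median there is not free of that choice. In the other direction, 268 of the 274 wild-type rises were above 0 in the mutant, with a median of 1.37 against 1.82 in wild type. Of the 16 kinase genes 11 also passed in wild type, among them AT1G51850 at 3.92 ± 0.79 and B120 at 2.06 ± 0.46. The 3 risen oxidases had wild-type changes of 6.02 ± 0.95 for AT1G26380, 4.37 ± 0.88 for AT1G26420 and 1.91 ± 0.58 for AT4G20830, the last not past the threshold.

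The test of the difference between the genotypes, the interaction of genotype and ozone at 3 h in limma, called 0 of 22746 probe sets. Its smallest adjusted p was 0.436, and 627 probe sets (2.76%) had an unadjusted p under 0.05. The precision of that test was limited: for AT1G26380 the mutant change minus the wild-type change was −1.28 (95% interval −4.08 to 1.53, unadjusted p = 0.354), and for WRKY6 it was −0.87 (95% interval −2.88 to 1.14, unadjusted p = 0.38). For AT5G48540, a brighter gene, the difference was 0.02 (95% interval −1.11 to 1.15, unadjusted p = 0.973). Differences inside these intervals were not excluded. Over all named genes the smallest unadjusted p in each direction was that of AT4G07660 and SDT, neither called for ozone in the mutant. AT4G07660 changed by 1.59 in the mutant and −2.90 in wild type (limma unadjusted p = 1.92e-05 for the interaction). SDT changed by −0.85 and 2.40 (limma unadjusted p = 0.000138). Both were dim, with clean-air means of 1.23 and 2.53 in the mutant. Among the 76 named rises 6 had an unadjusted p under 0.05 for the interaction: AT1G61390, AT3G43930, AT4G35400, AT2G10440, AT1G58025 and AT3G13630. The 76 were selected for their change in the mutant, so the larger mutant change of all 6 is not free of that choice. They are dim genes, with clean-air means of 1.68 to 5.03 in the mutant. AT3G43930 changed by 2.82 in the mutant and by 0.27 in wild type, a difference of 2.55 (95% interval 0.81 to 4.29, unadjusted p = 0.00599). Its clean-air mean was 1.95 in the mutant and 4.86 in wild type, while its ozone means were 4.77 and 5.12. AT4G35400 likewise stood at 2.95 and 5.20 in clean air and at 5.28 and 5.13 in ozone, and AT3G13630 at 5.03 and 6.71 in clean air and at 6.61 and 6.60 in ozone. In these 3 genes the clean-air mean was lower in the mutant and the ozone means were close. Selection for a rise in the mutant favours low clean-air levels there, so this pattern is not free of that choice either. With a pseudocount of 16, AT3G43930 and AT1G58025 no longer passed for ozone in the mutant, with changes of 1.16 and 0.71, and the changes of AT4G35400 and AT2G10440 were 1.20 and 1.05. ATMND1 changed by −2.67 in the mutant and by −0.59 in wild type, a difference of −2.07 (95% interval −3.40 to −0.74, unadjusted p = 0.00391).

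After 2 d of ozone the mutant showed few of these rises. There 43 probe sets passed (0.189%), 35 of them higher, and 2 were shared with the 140, which is 1.43% of the early rises and 5.71% of the late ones. The median change at 2 d of the 140 early rises was 0.29, and 95 of them were above 0. AT1G26420 was the named gene that passed at both times, with a change of 4.08 at 2 d (limma adjusted p = 0.0403). Its neighbour AT1G26380 changed by 0.42 at 2 d, and AT1G19020 by −0.08. Each change is set against clean air of its own time, and clean-air levels differed between the times. AT1G19020 had clean-air means of 7.76 at 3 h and 10.28 at 2 d, and ozone means of 12.11 and 10.19. For AT1G26380 the clean-air means were 4.83 and 5.53 and the ozone means 9.57 and 5.95. None of the 16 kinase genes passed at 2 d, where their changes lay between −0.81 and 1.0. The test of the difference between 3 h and 2 d called 8 probe sets, 6 more positive at 3 h (0.0264%) and 2 more negative (0.00879%). AT3G46110 was the only named early rise among the 8, with a change of 1.73 ± 0.36 at 3 h and −0.98 at 2 d. Its clean-air means were 7.41 at 3 h and 8.69 at 2 d, and its ozone means 9.13 and 7.71.

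**Figure D4:**
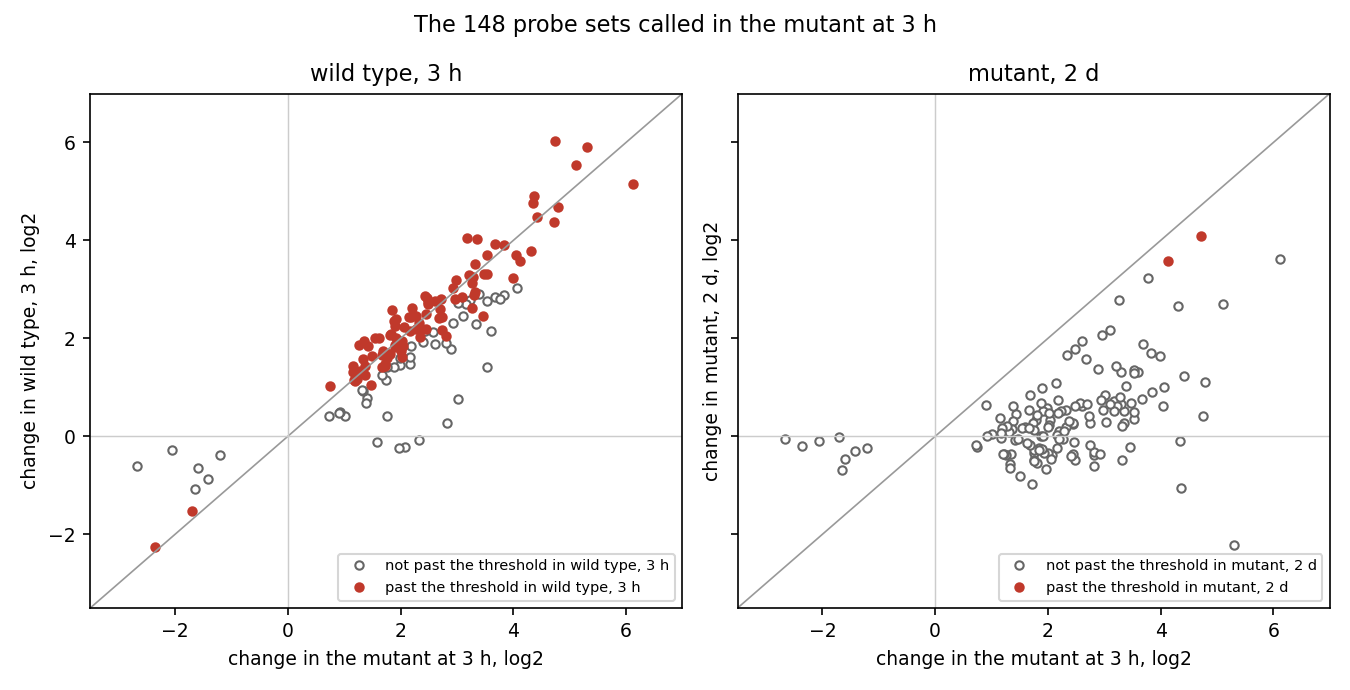
Change of the 148 probe sets in the mutant at 3 h (horizontal axis) against their change in wild type at 3 h (left) and in the mutant at 2 d (right), all as log2(intensity + 1). Red dots also passed in the comparison on the vertical axis and the grey line marks equal change. On the left most dots lie near the line, and on the right most lie near 0.

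The size of the early call list depended on single arrays. Clean-air replicate 2 was the highest clean-air array in 104 of the 140 risen probe sets, and ozone replicate 2 the highest ozone array in 129. The median level of the 140 was 7.0, 7.52 and 6.90 on the clean-air arrays and 9.03, 10.46 and 9.20 on the ozone arrays. Without clean-air replicates 1, 2 and 3 the count was 13, 296 and 3, and without ozone replicates 1, 2 and 3 it was 92, 4 and 201. Without both arrays numbered 2, an alternative chosen after the data were seen, 43 probe sets passed, 32 of them among the 148. No named gene passed whichever array was left out. AT1G26380, AT1G19020, AT4G19370 and B120 passed in at least 4 of the 6 cases, and all 79 kept the direction of their change under every alternative tried. Just inside the threshold lay AT3G48650 (adjusted p = 0.0472 in limma) and AT2G39400 (0.0493), and just outside AT4G38550, with a change of 1.17 (0.0519), and AT1G11770, with one of 2.36 (0.0527).

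**Figure D5:**
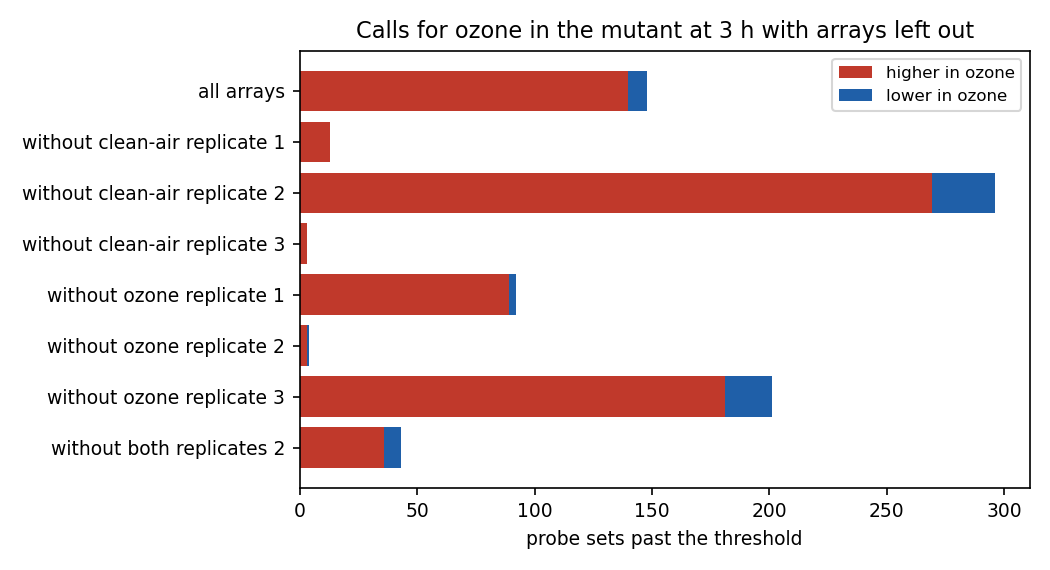
Number of probe sets past the threshold for ozone in the mutant at 3 h with all arrays, with each of the 6 arrays left out in turn, and without both arrays numbered 2. Red bars are higher and blue bars lower in ozone. The count spans 3 to 296.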

How the data were processed

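Leaf RNA was hybridised to 27 single-colour ATH1 arrays. The deposited values are linear intensities, 1 for each array and probe set. The submitters' processing notes list RMA and Affymetrix Expression Console without versions. RMA usually gives log2 values, and how these intensities were summarised and scaled is not given in the sources. Trimmed means of the arrays lay between 495.9 and 496.8.

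Deposited intensities were taken to log2(intensity + 1), without filter or further normalization. The size of a change in a dim gene depends on the added constant: for AT1G51850 it was 3.84, and 1.91 with 16 added. One limma 3.58.1 model (R 4.3.3) with 8 group means was fitted to 27 arrays, with 19 residual and 2.53 prior degrees of freedom. Tests were 2-sided, with Benjamini-Hochberg adjustment inside each contrast. The median SE of a change was 0.338, and the number of arrays limits the precision. P-values measure the spread between arrays. The fit was tested on simulated data.

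Gene names were taken from the platform annotation and brought up to date with TAIR10.1: 13513 probe sets had 1 gene, 503 several and 8730 were not listed. In lists the brightest probe set stood for a gene. Named with every array were up to 15 rises and 5 falls with the largest change that passed without overlap of the airs. Other called genes were named by list or role, and short lists (up to 8 measured genes) in full. For ozone by time all 8 called probe sets were named. For genotype by ozone the named genes were called for ozone in the mutant, beside the named gene with the smallest p in each direction. Members of longer lists that did not pass were chosen after their values were seen. The comparison, the genes and the lists were chosen with earlier results of these data known. Alternatives were a pseudocount of 16, a filter (intensity of at least 32 on 3 arrays), centred or quantile-normalized arrays, other sets of arrays, array weights, an intensity trend, replicates as a block and arrays left out in turn. Promoter sequences were not analysed here.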

Additional observations from a re-analysis of the deposited data

Results flagged for a closer look

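In the mutant the change in ozone differed between 3 h and 2 d for 8 probe sets, by limma's test of the difference itself. Each value below is the 3 h change minus the 2 d change, as log2(intensity + 1). For 4 bright unlisted probe sets it was positive: 1.59 for 262899_at, 2.11 for 264624_at, 2.82 for 267083_at and 3.29 for 259272_at. Their clean-air means at 3 h were 12.13, 10.53, 11.02 and 9.88, and their clean-air means at 2 d were 13.30, 13.09, 13.31 and 12.57, near or above their ozone means of 13.35, 12.36, 13.46 and 12.81 at 3 h. For 247573_at it was 7.52, with changes of 5.31 ± 0.89 at 3 h and −2.21 ± 0.84 at 2 d. Its clean-air means were 2.34 at 3 h and 5.10 at 2 d, the latter with an SD of 2.48, and its ozone means 7.65 and 2.89. AT3G46110 gave 2.71, from a change of 1.73 ± 0.36 at 3 h and −0.98 ± 0.33 at 2 d. For 2 genes it was negative: −3.99 for AT5G05840, which changed by −1.18 ± 0.49 at 3 h and by 2.81 ± 0.45 at 2 d, and −1.68 for AT1G60770, which changed by −0.75 ± 0.21 and 0.93 ± 0.19. AT5G05840 had close ozone means, 5.77 at 3 h and 5.71 at 2 d, while its clean-air means were 6.95 and 2.90. AT1G60770 had clean-air means of 8.55 and 7.69 and ozone means of 7.80 and 8.62. The adjusted p-values of limma ran from 0.0118 to 0.0446.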

How the results depend on the processing

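For ozone in the mutant at 3 h, against 148 calls, the count was 91 with arrays centred on their median, 52 with a separate fit per time point, 0 with the 6 arrays fitted alone and 844 with array weights, where 75.6% were higher against 94.6%. The fit of 6 arrays has fewer samples by construction, and the other causes were not tested. Counts of 204 (pseudocount 16), 172 (filter), 125 (quantile) and 209 (intensity trend) lay within 1.5 times. Leaving out 1 array gave 3 to 296 calls, and leaving out both arrays numbered 2 gave 43. For ozone by time, against 8 calls, the count was 24 with pseudocount 16, 13 with the filter, 306 with array weights (44.4% higher against 75%), 38 with the trend, and 0 to 49 with 1 array left out. The genotype by ozone difference stayed at 0 calls except with 1 array left out, where it ranged from 0 to 1. Replicate numbers are shared by both airs. Same-numbered arrays' deviations from their group means correlated at 0.0779, 0.189 and 0.116, and those of differently numbered arrays at −0.148 to 0.055. The first value lay under the floor of 0.1 used here for pairing, so the arrays were not taken as paired. Still, 6 of 6 arrays correlated best with their own number, and these values do not settle whether the numbers mark pairs. With the replicate number as a block the counts were 230 (118 of them among the 148), 0 and 5, and 65 of the 79 named genes passed. AT1G26380 and AT1G61390 were among those that did not. With pseudocount 16, 75 of the 79 passed. None of the single-gene changes reversed. The number of arrays limits all of these tests.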

Other observations

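At 3 h, 3 probe sets differed between mutant and wild type in clean air and 4 in ozone by limma, and 2 were lower in the mutant in both airs. The probe set 253204_at lay at 7.83 to 8.43 on the mutant arrays and at 9.92 to 11.36 on the wild-type arrays of 3 h, and 267375_at at 1.26 to 3.51 against 8.16 to 9.67. The genes these read are not named in the annotation used here.

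Across all 22746 probe sets the changes at 3 h in the mutant and in wild type had a Pearson r of 0.532, and of 0.834 over the 12574 probe sets with a mean level of at least 7. The same values against the mutant at 2 d were 0.154 and 0.22. These are descriptions across probe sets, which are not independent, and the comparisons share no arrays.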
